A study of Caenorhabditis elegans with 8 samples.

Results

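The 10 genes described here form the core of the sex determination pathway of Caenorhabditis elegans and of the switch between sperm and oocytes in its germline: her-1, tra-1, tra-2, tra-3, fem-1, fem-2, fem-3, fog-1, fog-2 and fog-3. They were chosen by their WormBase symbols, and all 10 were found among the 17076 genes listed in the deposited table and passed the filter on low values. RNA was sequenced from whole wild-type hermaphrodites of the strain N2, the standard laboratory strain. Worms labelled adult day 1 had been grown for 60 h and those labelled adult day 5 for 180 h from synchronized first-stage larvae, at 20 °C on agar with the bacterial strain OP50, with no other allele or agent in either group. The culture times lie further apart than the labelled ages. Each age had 4 libraries, 1 in each of 4 labelled batches, and the series title links the age of the mother to survival of the offspring.

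In this pathway the secreted ligand HER-1 blocks the membrane receptor TRA-2 in males, while in hermaphrodites TRA-2, which the calpain protease TRA-3 can cleave, holds the 3 FEM proteins in check. The FEM proteins act with a CUL-2 ubiquitin ligase to lower the transcription factor TRA-1, a zinc finger protein of the GLI family that represses male genes. Hermaphrodites make sperm first, in late larval life, and then switch to oocytes for the rest of their reproductive life. For the sperm phase, FOG-2 and the RNA-binding protein GLD-1 repress tra-2 mRNA, and FOG-1 and FOG-3 specify sperm fate at the end of the pathway. For the switch to oocytes, the PUF proteins FBF-1 and FBF-2 with NOS-3 repress fem-3 mRNA. Much of this control acts on translation and protein turnover, which transcript levels do not show.

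Of the 10 genes, 7 were called higher at day 5 and 1 lower, by limma with a Benjamini-Hochberg adjusted p under 0.05 over all 16739 genes tested. Among all genes tested 55.6% were called, 28.8% higher and 26.8% lower, so calls are common in this comparison. fem-3 had the largest difference of the 10, at 12.4 times its day 1 mean, and her-1, fog-2, fem-2, tra-2, fog-1 and tra-3 followed with ratios of means from 7.07 to 1.59. fog-3 fell, to a mean 6.65 times lower. tra-1 and fem-1 were not called. The median log2 difference of the 10 was 1.36, against -0.06 over all genes tested. Day 1 and day 5 libraries were fully separated in 8 of the 10, and in 52.8% of all genes tested.

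Levels are the deposited values, which are reads scaled by a size factor of each library, and are given for batches 1 to 4 in that order. Differences between the ages are given in log2 units of value + 1, positive where day 5 was higher, each with a standard error (SE) from limma. Libraries held 19345868 to 22305681 recovered reads, and 1 read was worth a value of 0.886 to 1.13. Whether the libraries of an age were grown as separate cultures is not stated, and p-values therefore reflect library-to-library spread that may be technical. Values come from whole worms, so fewer cells of a type and less RNA per cell cannot be told apart, and the transcripts of a gene are summed.

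**Figure D1:**
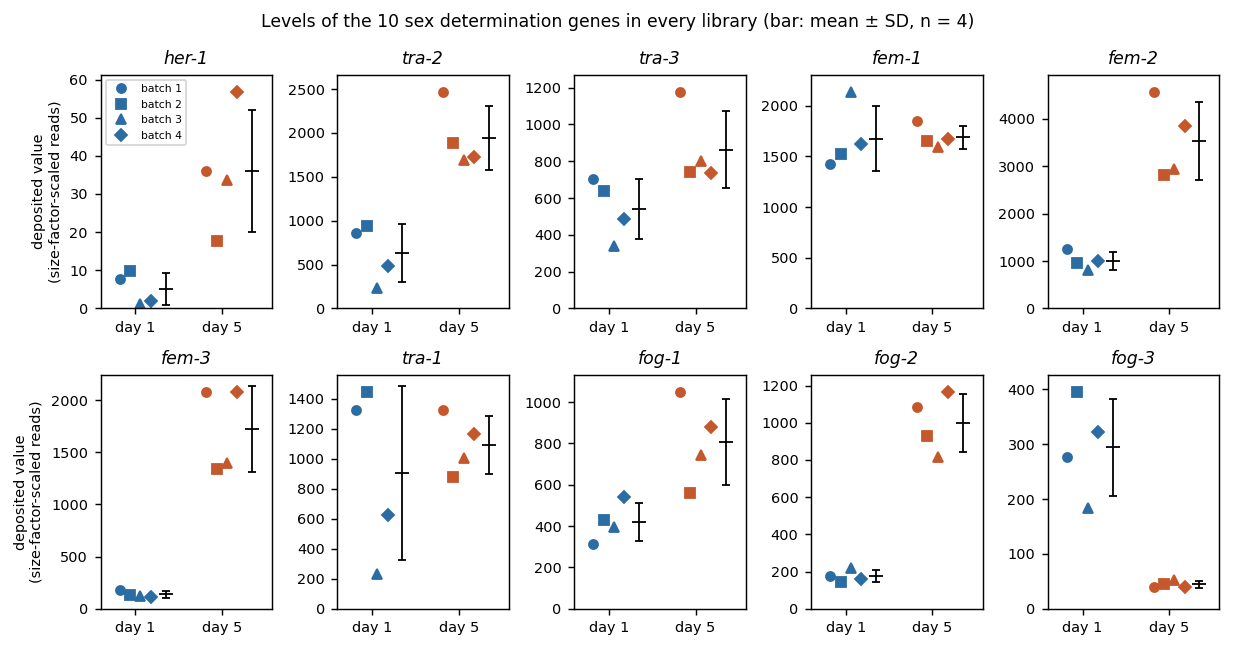
Deposited value (linear axis from 0) of each of the 10 genes in every library, with day 1 in blue, day 5 in orange, 1 symbol per batch, and the mean ± SD (n = 4) beside the points. All day 5 points of fem-3 lie between 1339 and 2077, above the day 1 points of 114 to 183, while those of fog-3 lie between 38.8 and 53.1, below the day 1 points of 184 to 395.

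The ligand gene her-1 (WBGene00001842; WBcel235 chromosome V, 9697015 to 9702035, plus strand) was at 7.63, 9.73, 1.10 and 1.94 at day 1 and at 36.01, 17.7, 33.7 and 56.8 at day 5. These values rest on 8, 10, 1 and 2 reads at day 1 and 32, 19, 38 and 57 reads at day 5. Every day 5 library was above every day 1 library, although the mean of the gene was the lowest of the 10 at both ages. The mean rose from 5.10 ± 4.23 to 36.03 ± 16.04 (SD, n = 4), which is 2.81 in log2 units (SE 0.63, limma adjusted p = 0.00381). Its size depended on which day 1 libraries were kept: the difference was 3.79 without both day 1 libraries of batches 1 and 2 and 1.83 without both of batches 3 and 4. It was 2.04 with a pseudocount of 5, which weighs on low values.

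The receptor gene tra-2 (WBGene00006605; chromosome II, 6955384 to 6965673, minus strand) was at 862, 939, 237 and 488 at day 1 and at 2469, 1882, 1692 and 1724 at day 5. The groups did not overlap, and the day 1 library of batch 3 was the lowest. tra-2 rose from 631 ± 328 to 1942 ± 361, a rise of 1.79 in log2 units (SE 0.40, limma adjusted p = 0.00359). The differences within batches 1 to 4 were 1.52, 1.00, 2.83 and 1.82. The difference was 2.49 without both day 1 libraries of batches 1 and 2 and 1.09 without both of batches 3 and 4. The annotation gives tra-2 26 exonic bases in common with ceh-38 on the other strand, and the labels state no strand marking for the library kit.

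The calpain gene tra-3 (WBGene00006606; chromosome IV, 14436445 to 14444183, minus strand) had values of 704, 640.1, 337 and 487 at day 1 and of 1177, 739.7, 801 and 737 at day 5. The highest day 1 library and the lowest day 5 library lay close together, and the day 5 library of batch 1 stood above the other three. The log2 difference of 0.70 (SE 0.27, limma adjusted p = 0.0498) only just passed the threshold. It did not pass under 14 of the 21 alternatives, among them edgeR (adjusted p = 0.067 with TMM scaling), and leaving out any of 6 of the 8 libraries ended the call. The annotation lists 28 piRNA genes inside tra-3, none of them sharing an exonic base with it.

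Of the FEM genes, fem-3 and fem-2 rose and fem-1 was not called. fem-3 (WBGene00001413; chromosome IV, 9104966 to 9107607, plus strand), which TRA-2 binds and FBF represses, was at 183, 133, 123 and 114 at day 1 and at 2075, 1339, 1395 and 2077 at day 5. Its day 1 libraries stayed within 1.60 times of each other, and the lowest day 5 library was far above the highest of them. From 138 ± 30.7 to 1721 ± 410.0, the log2 difference was 3.62 (SE 0.24, limma adjusted p = 3.45e-06), and 3.69% of all genes tested had a difference as large or larger. The 21 alternative fits all called it higher and gave 3.37 to 3.81.

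fem-2 (WBGene00001412; chromosome III, 632019 to 634626, minus strand) encodes a protein phosphatase of the PP2C family. At day 1 it had values of 1243, 952, 805 and 996, and at day 5 of 4566, 2809, 2949 and 3839, with no overlap. The mean rose from 999 ± 182 to 3541 ± 822, or by 1.81 in log2 units (SE 0.21, limma adjusted p = 8.55e-05). Batches 1 to 4 gave 1.88, 1.56, 1.87 and 1.95, a narrow range beside that of tra-2.

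fem-1 (WBGene00001411; chromosome IV, 5533140 to 5537962, minus strand) encodes an ankyrin repeat protein that brings substrates to the CUL-2 ligase. It was at 1424, 1520.4, 2137 and 1623 at day 1 and at 1853, 1652, 1589 and 1670.2 at day 5, so the groups overlapped and the day 1 library of batch 3 was the highest of all. The means were 1676 ± 318 and 1691 ± 114, and the log2 difference of 0.03 (SE 0.17, 95% interval -0.36 to 0.42, limma adjusted p = 0.906) had an interval that excludes a change of more than 1.33-fold upward. Its sign turned under 4 alternative scalings, and quantile normalization called it lower (-0.57, adjusted p = 0.0175).

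tra-1 (WBGene00006604; chromosome III, 11170890 to 11195201, minus strand), the terminal regulator of somatic sex, was at 1324, 1444, 230.1 and 624 at day 1 and at 1324, 877, 1003 and 1164 at day 5. The day 1 libraries spanned 6.28-fold and enclosed all day 5 values, which spanned 1.51-fold. Means of 906 ± 578 and 1092 ± 195 differed by 0.57 in log2 units (SE 0.51, limma adjusted p = 0.374). The direction followed the day 1 libraries kept: 1.51 without both of batches 1 and 2, which was called (adjusted p = 0.00516), and -0.36 without both of batches 3 and 4, which was not (adjusted p = 0.154). Of all genes tested, 13.8% had a larger SD between day 1 libraries than the 1.23 of tra-1 (log2).

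The 3 FOG genes did not move together. fog-2 (WBGene00001482; chromosome V, 20199254 to 20200648, plus strand), an F-box gene that permits sperm formation in hermaphrodites, was at 173, 145, 220.2 and 158 at day 1 and at 1083, 931, 814 and 1164 at day 5. The ages were far apart and each was tight. fog-2 rose from 174 ± 32.8 to 998 ± 156, or by 2.52 in log2 units (SE 0.21, limma adjusted p = 1.33e-05). The next gene upstream, 1012 bases away on the same strand, is its relative ftr-1, which rose from 250.0 ± 98.8 to 548 ± 59.8, or by 1.197 in log2 units (SE 0.27, limma adjusted p = 0.00387). fbxa-114, 967 bases downstream, was also called higher, at 0.73 (limma adjusted p = 0.0103). The close relation of fog-2 and ftr-1 leaves the division of their reads uncertain.

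fog-1 (WBGene00001481; chromosome I, 3211046 to 3217267, plus strand), a CPEB-family RNA-binding protein needed for sperm fate, was at 315, 431, 397 and 539 at day 1 and at 1048, 559, 741 and 878 at day 5. The highest day 1 and the lowest day 5 library almost met. fog-1 rose from 420.4 ± 92.9 to 807 ± 207, or by 0.93 in log2 units (SE 0.25, limma adjusted p = 0.00982), which quantile normalization left uncalled at 0.55 (adjusted p = 0.0925). The gene rom-5 ends 20 bases away on the opposite strand.

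fog-3 (WBGene00001483; chromosome I, 10016765 to 10018121, plus strand), a Tob-family protein that acts with FOG-1, went the other way. It was at 277, 395, 184 and 323 at day 1 and at 40.5, 44.7, 53.1 and 38.8 at day 5. All day 1 libraries were above all day 5 libraries, by at least the gap between 184 and 53.1. The mean fell from 295 ± 88.4 to 44.3 ± 6.39, a change of -2.66 in log2 units (SE 0.30, limma adjusted p = 6.61e-05). Of all genes tested, 6.06% had a difference as low or lower. All 21 alternative fits called it lower, between -2.91 and -2.37.

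**Figure D2:**
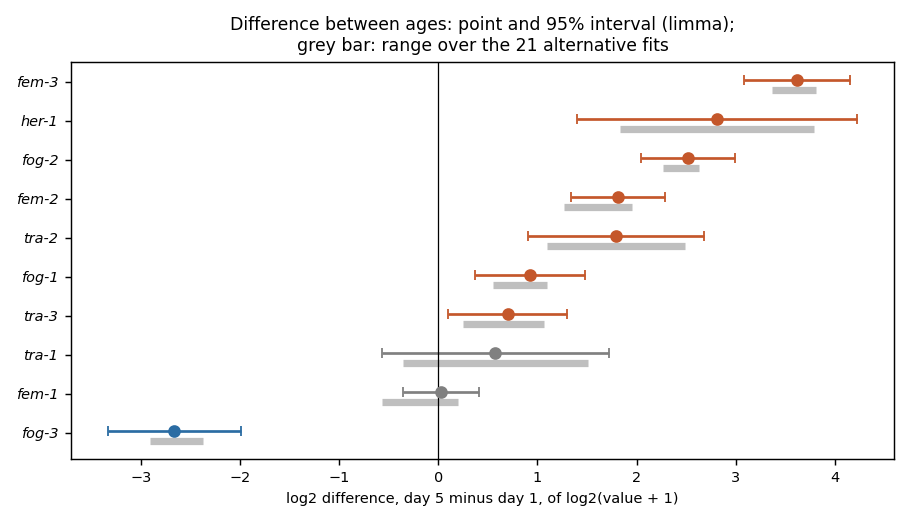
Log2 difference, day 5 minus day 1, of each gene with its 95% interval from limma (n = 4 libraries per age), orange where called higher, blue where called lower and grey where not called. Grey bars give the range over 21 alternative fits; those of tra-1 and fem-1 cross 0, and those of the other 8 genes stay on one side.

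Ratios between genes within a library, per kilobase of annotated exon, do not depend on the size factor of the library. The ratio of fog-3 to fog-1 was 1.87, 1.94, 0.982 and 1.27 at day 1 and 0.0821, 0.17, 0.152 and 0.0938 at day 5. The mean ratio of 1.52 ± 0.47 at day 1 was 12.2 times that of 0.124 ± 0.043 at day 5, with no overlap. tra-2 stood to fem-3 at 1.56, 2.33, 0.635 and 1.41 at day 1 and at 0.393, 0.465, 0.401 and 0.275 at day 5, so fem-3 exceeded tra-2 in every day 5 library and in 1 of the day 1 libraries. fem-3 stood to fem-1 at 0.0809 to 0.18 at day 1 and at 1.14 to 1.74 at day 5. These ratios are descriptions, and no test was made of them.

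**Figure D3:**
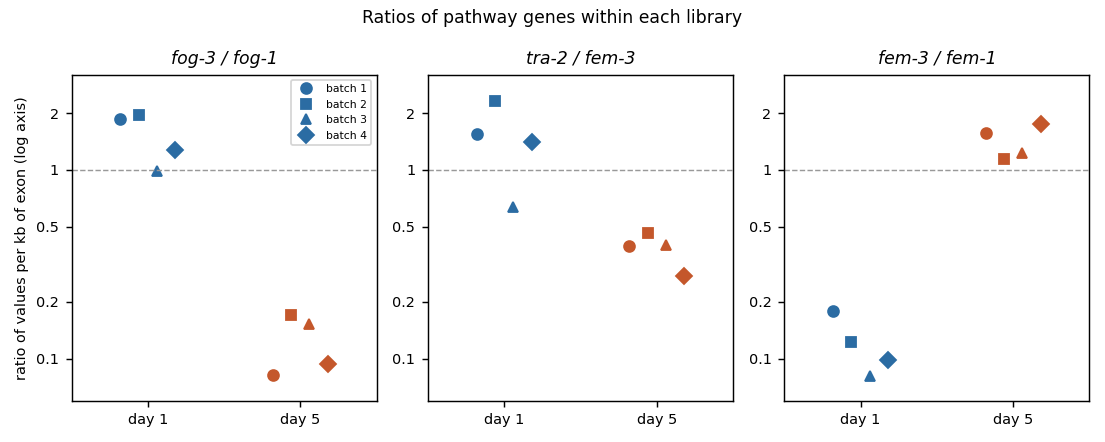
Ratio of the values per kilobase of exon of fog-3 to fog-1, tra-2 to fem-3 and fem-3 to fem-1 in each library (log axis, dashed line at a ratio of 1, 1 symbol per batch, day 1 blue, day 5 orange). In each panel the day 1 and day 5 points do not overlap, with fog-3 to fog-1 from 0.982 to 1.94 at day 1 and from 0.0821 to 0.17 at day 5.

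The order of the 10 genes by level per kilobase of exon also differed between the ages. At day 1 fem-1 (714 ± 135) and fem-2 (557 ± 102) led, with overlapping ranges, and fem-2 lay above fog-3 (295 ± 88.5) in all libraries. From fog-3 down through tra-3, fog-1, tra-1, fog-2, tra-2 and fem-3 (82.7 ± 18.3) each neighbouring pair overlapped, and her-1 (4.52 ± 3.76) was clearly lowest. At day 5 fem-2 (1974 ± 458) led, fem-3 (1028 ± 245) had moved from the ninth place to the second, and fog-2 (855 ± 134) and fem-1 (720.2 ± 48.4) followed. fem-2 and fem-3 did not overlap, while fem-3 and fog-2, and fog-2 and fem-1, did. fog-3 (44.4 ± 6.40) had moved from the third place to the ninth and overlapped with her-1 (32.0 ± 14.2).

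Variation between the day 1 libraries divided the genes as well. her-1, tra-1, tra-2 and tra-3 were highest in batches 1 and 2 and lowest in batch 3, where they lay 1.22, 1.65, 1.22 and 0.63 (log2) under their day 1 mean. fem-1 and fog-2 were highest in batch 3, at 0.37 and 0.35 above it. fem-2 and fog-3 were also lowest in batch 3, by 0.29 and 0.62, but were not highest in both of batches 1 and 2. fem-3 was highest in batches 1 and 2 (183 and 133), but lowest in batch 4 (114). The summed level of 60 tested sperm genes was 29710.1 and 16380 in the day 1 libraries of batches 1 and 2 and 1940 and 2043 in those of batches 3 and 4. In batches 1 to 4, 16 genes expressed throughout the germline summed to 50714, 53851, 26197 and 30354. In the same libraries 24 oocyte genes summed to 14503, 12488, 4816 and 6388, and 6 yolk protein genes to 1804, 4415, 122 and 111. fog-3 had the order of the summed sperm genes in part: it was lowest in batch 3 (184) like their sum and high in batch 2 (395). But fog-3 was at 323 in batch 4, where the sperm genes were low, and at 277 in batch 1, where they were highest. By list median the sperm genes were lowest in batch 4, at -2.11 (log2) from their day 1 mean, against -1.93 in batch 3. fog-1 was lowest in batch 1 (315) and highest in batch 4 (539). The part of these gene groups in the differences between libraries was not tested.

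**Figure D4:**
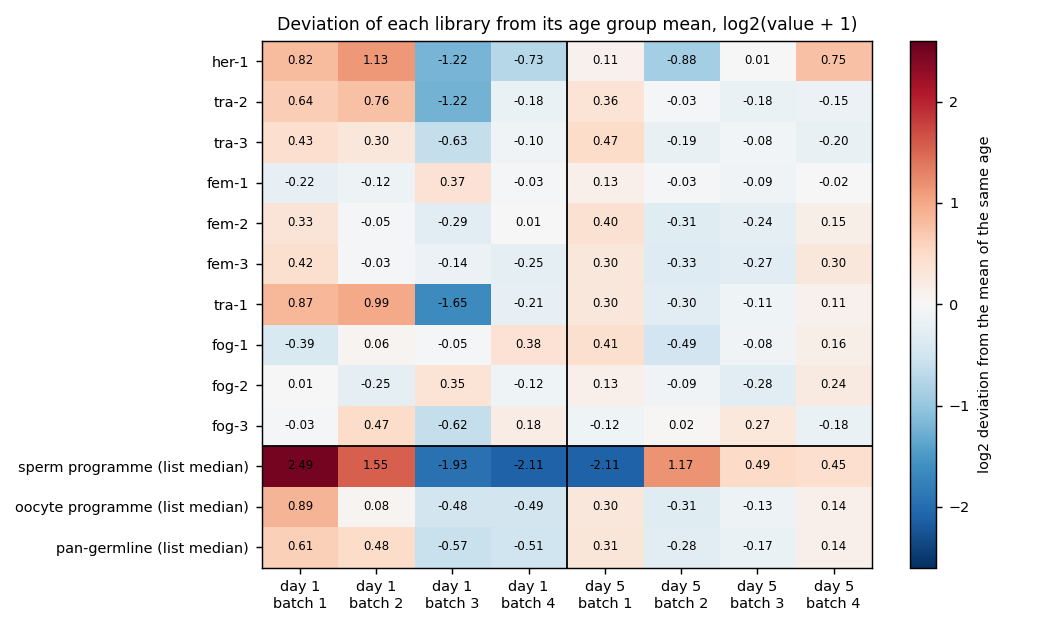
Log2 deviation of each library from the mean of its age group, for the 10 genes and for the medians of the sperm, oocyte and pan-germline lists (red above, blue below, values printed). The day 1 library of batch 3 is the lowest of its age for her-1, tra-1, tra-2, tra-3, fog-3 and fem-2, from -1.65 for tra-1 to -0.29 for fem-2.

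Oocyte and pan-germline marker genes were higher at day 5, and the 10 genes were set beside them. Among all genes tested 28.8% were called higher, and the median log2 difference was -0.06. Of the 16 pan-germline genes 15 were called higher, with a median log2 difference of 1.70. Their summed level went from between 26197 and 53851 at day 1 to between 127154 and 175902 at day 5. All 24 oocyte genes were called higher, with a median of 5.49, and summed to 4816 to 14503 at day 1 and 263283 to 418977 at day 5. The 6 yolk protein genes, which mature hermaphrodites express in the intestine, summed to 111 to 4415 at day 1 and to 589523 or more at day 5, so the worms labelled adult day 1 were low in yolk transcripts. Relative to the pan-germline median of the same library, fem-3 was at -3.60, -3.92, -2.98 and -3.15 (log2) at day 1 and at -1.81, -1.86, -1.91 and -1.65 at day 5, and was the only one of the 10 that lay higher at day 5 without overlap, as did 4.82% of all genes tested on this scale. fog-3 went from -2.36 ± 0.55 to -7.04 ± 0.43 on this scale, and tra-1, tra-3 and fem-1 also lay lower at day 5 without overlap, by 1.44, 1.32 and 1.99. Since the pan-germline median itself was higher at day 5, 63.4% of all genes tested lay lower without overlap on this scale, and these 4 are no result about the members. The other five, tra-2, fem-2, fog-1, fog-2 and her-1, overlapped. The part of the amount of germline in the called differences was not tested.

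Sperm genes were mostly not called. Of 60 tested, 2 were higher, cpb-1 and elt-1, and 1 lower, spe-4, beside 28.8% higher and 26.8% lower among all genes tested. The median of the 60 was 0.83. elt-1, a GATA factor, and spe-4, a presenilin of sperm, are named here because they were called. cpb-1, a CPEB protein of spermatogenesis related to FOG-1, was at 986, 899, 145 and 233 at day 1 and at 2291, 1284, 1838 and 2177 at day 5. The sperm list summed to 5767, 20566, 14551 and 14899 at day 5, within the day 1 range of 1940 to 29710.1. ssq-2, the other of the pair with the highest means, was at 678 ± 806 and 594 ± 374. Its log2 difference of 0.79 (SE 1.12, limma adjusted p = 0.582) was not called. With an SE of this size, the lack of a call does not show that a level was unchanged. As a check of the labelled sex, 7 of 11 male-enriched genes were listed and together summed to 82.6 to 122 at day 1 and 106 to 188 at day 5. All 17076 listed genes had at least 1 read at each age, so a male-enriched gene without reads at an age could not be among the 7. Of the 7, 1 was called higher, beside 28.8% of all genes tested, and the median log2 difference of the 7 was -0.07. The called gene was try-5, a protease of male seminal fluid, at 14.6 ± 4.69 and 77.9 ± 29.6. cwp-4, the other of the pair with the highest means, was at 30.4 ± 12.9 and 14.9 ± 5.46 and was not called (limma adjusted p = 0.119).

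Upstream of her-1, genes that read the number of X chromosomes or act on it were higher in part. Of 8 tested, 4 were called higher, beside 28.8% of all genes tested, and the other 4 were not called. Their median was 1.60. ceh-39 and sex-1, X-linked elements that repress the male switch gene xol-1, both rose. ceh-39 went from 26.8 ± 12.5 to 767 ± 308 (4.88, limma adjusted p = 2.61e-05) and sex-1 from 102 ± 29.6 to 1180.5 ± 140.2 (3.55, adjusted p = 3.95e-06). xol-1 itself was low, at 10.5 ± 5.43 and 25.8 ± 13.7, and was not called (adjusted p = 0.0955). sdc-1, of the group that represses her-1 in hermaphrodites, rose from 218 ± 17.9 to 930.5 ± 239 (2.06, adjusted p = 4.41e-05). Its partner sdc-2, which sets her-1 repression in motion, was at 290.3 ± 107 and 276 ± 169 and was not called (adjusted p = 0.663); 1181 of its exonic bases are shared with an antisense gene.

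Among 25 listed RNA regulators of the germline sex decision, 18 were called higher, beside 28.8% of all genes tested. The other 7 were not called, and the median was 1.24, against 1.70 for the pan-germline genes. gld-1, the partner of fog-2 on tra-2 mRNA, was at 4843, 3805, 625 and 827 at day 1 and at 22849, 10089, 17229 and 22703 (batches 1 to 4) at day 5. It rose by 3.30 (SE 0.64, limma adjusted p = 0.0017), or by 2.01 without both day 1 libraries of batches 3 and 4 and 4.59 without both of batches 1 and 2. The FBF pair that represses fem-3 mRNA was not called: fbf-1 was at 687 ± 57.6 and 904 ± 66.9 (0.40, adjusted p = 0.0566) and fbf-2 at 718 ± 126 and 554 ± 84.2 (-0.37, adjusted p = 0.146). The libraries of the ages did not overlap for fbf-1. Both genes are close copies of each other, so the division of their reads is uncertain. DESeq2 called fbf-1 higher, as did limma without the day 1 library of batch 3, and scaling outside the top 1% of genes and quantile normalization called fbf-2 lower. nos-3, which acts with FBF, rose from 2019 ± 772 to 5005 ± 679 (1.38, adjusted p = 0.00185). The largest differences in this list were those of nos-2, at 12.4, 10.7, 0 and 0 at day 1 and 2433 to 4600.3 at day 5, gld-3 (3.93, adjusted p = 0.000201) and nos-1 (3.84, adjusted p = 6.08e-05). nos-2 shares 154 exonic bases with him-14. Its log2 difference of 9.86 depended on the pseudocount, at 11.58 with 0.1 and 8.503 with 5. It also depended on the day 1 libraries kept, at 11.69 without both of batches 1 and 2, 8.04 without both of batches 3 and 4, and 9.25 to 10.50 without single ones.

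Protein partners of the pathway were nearly all higher, with 8 of 9 called, beside 28.8% of all genes tested, and a median of 1.19. Of the 16 pan-germline genes, 15 were called higher, with a median of 1.70. cul-2, the ligase scaffold that works with the FEM proteins, rose from 2216 ± 291 to 5795 ± 801 (1.39, limma adjusted p = 0.000119). nasp-1, a histone chaperone, and hda-1, a histone deacetylase, which act with TRA-4 to favour female fate, rose by 1.88 and 1.91 (adjusted p of 0.000104 and 4.76e-05). Only rpn-10, a proteasome subunit that regulates TRA-2, was not called in this list.

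Of 4 somatic targets of TRA-1, 1 was called higher and 2 lower, beside 28.8% higher and 26.8% lower among all genes tested. mab-3, a DM-domain gene that TRA-1 represses in hermaphrodites, was at 274, 271, 101 and 122 at day 1 and at 12.4, 23.3, 41.6 and 25.9 at day 5, and fell by 2.83 (SE 0.48, limma adjusted p = 0.000718). dmd-3, a DM-domain gene of the male tail, went from 22.6 ± 11.2 to 5.24 ± 3.77 (-1.97, adjusted p = 0.0141) and was not called without both day 1 libraries of batches 1 and 2 (adjusted p = 0.119). egl-1, a cell death activator that TRA-1 represses in the neurons that drive egg laying, was at 0.953, 1.95, 0 and 2.91 at day 1, no more than 3 reads in any library, and at 61.9, 59.6, 99.2 and 62.7 at day 5. It was called higher (adjusted p = 3.8e-05), but the size of its log2 difference depended on the pseudocount: 5.01 with 1, 6.27 with 0.1 and 3.55 with 5. ceh-30 was at 14.6 ± 7.16 and 9.93 ± 5.19 (adjusted p = 0.435). tra-1 itself was not called between the ages, as given above.

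**Figure D5:**
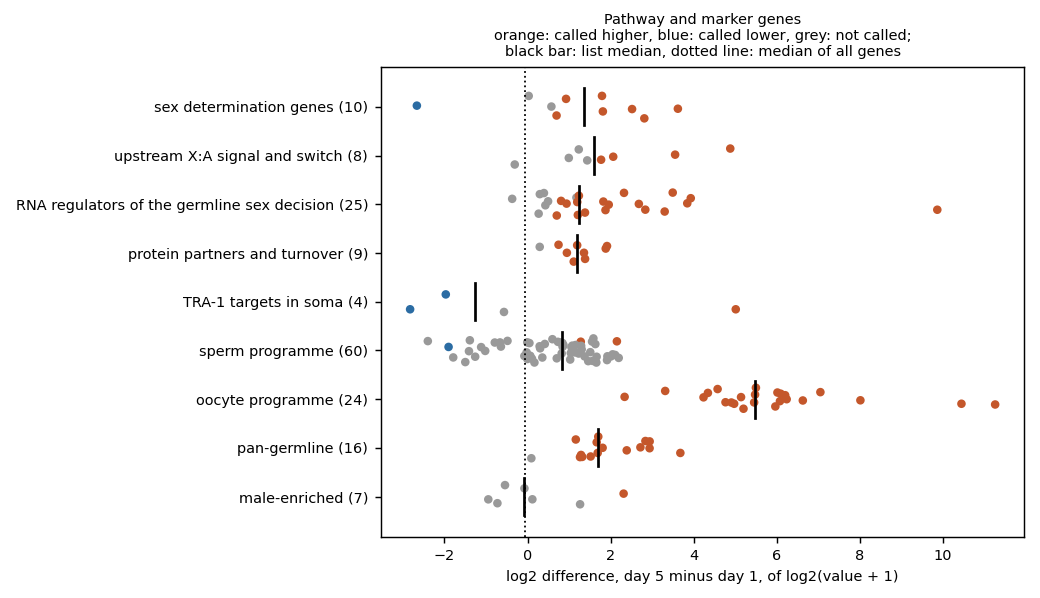
Log2 difference, day 5 minus day 1, of every tested gene in the pathway, germline and male lists (yolk genes, with a median of 10.88, are not drawn), with the number tested in brackets (orange called higher, blue called lower, grey not called; black bar, list median; dotted line, median of all genes at -0.06). The medians of the lists drawn run from -1.27 for the TRA-1 targets to 5.49 for the oocyte genes, and the sex determination genes lie at 1.36.

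Members were compared only with tested genes whose symbol is a name, a hyphen and a number. The correlations are descriptions without a test. The compared genes most like a member in log2 level over the 8 libraries share its step between the ages where it has one. For fem-3 they were dsb-2, needed for meiotic double-strand breaks, and air-1, the Aurora A kinase, both with Pearson r = 0.999, and grif-1 (0.998). For fem-2 they were cee-1, gen-1 and tsp-12 (0.997 to 0.999), for tra-2 let-765, maco-1 and dgk-4 (0.997 to 0.998), and for fog-1 spl-3, cap-1 and flad-1 (0.980 to 0.983). For fog-2 they were kbp-5, a kinetochore protein, lsl-1 and fbxa-206 (0.998 to 0.999), and for fog-3 gyg-1, ckk-1 and unc-83 (0.995 to 0.998). tra-1, which varied mostly within day 1, was most like ptp-3, daf-5 and nhr-48 (0.991 to 0.998). daz-1, a germline RNA-binding gene, was among the most similar for her-1 (0.988), after ubxn-3 and enu-3.2 (0.989 and 0.988). tra-3 was most like snx-13, rme-1 and fubl-3 (0.9901 to 0.993) and fem-1, which had no called step, like ethe-1, hpo-12 and nap-1 (0.963 to 0.980). Among the 10 genes themselves fog-2 and fog-3 were the most opposed pair, at -0.996, and fem-2 and fem-3 the most alike, at 0.988.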

How the data were processed

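HISAT2, HTSeq and WBcel235 are named in the submitters' processing notes; tool versions, the annotation, strand settings and the handling of multiply mapped reads are not given there. The authors deposited 1 table under the name FPKM. Its signal is not FPKM: dividing a library's values by the worth of 1 read gave whole reads for 100% of values (tolerance 0.001 reads), so the deposited values are read counts over a size factor, without correction for length. Coordinates (1-based) and exon lengths come from annotation release 115 of WBcel235, and 16887 IDs matched the name table.

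The filter kept genes averaging 1 or more over the 8 libraries. Age was the sole term of the limma model (limma 3.58.1, R 4.3.3), fitted to log2(value + 1) with a mean-variance trend. On simulated counts for day 5 against day 1 (16710 genes tested) limma recovered 2% of 50 genes changed 1.5-fold, 26% at 2-fold and 100% at 4-fold. The simulation changed few genes and gave all genes the same dispersion, and it had 117 calls against 9307 in the data. The adjusted p threshold was therefore stricter there, and these shares do not give the power of the real comparison. Alternatives included edgeR 4.0.16 and DESeq2 1.42.0 on recovered reads; edgeR with TMM called 9300 genes and DESeq2 9701, against 9307 by limma.

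The labels tie each replicate number to a batch that holds a library of each age, so the numbers pair the libraries. Deviations of same-batch libraries from their group means correlated across genes at -0.224, 0.235, -0.0946 and -0.0175. Those of libraries from different batches correlated at -0.308 to 0.272, so same-batch libraries were no more alike than others. The members, gene lists and tests were chosen with earlier results of these data known. Named genes are the 10 members, the 3 called genes with the largest differences in each direction per pathway list, and 8 fixed regulators. For each member the 3 genes with the highest correlation are named, among tested genes with a symbol of the form given above. So are the 2 highest of each marker list, of which the oocyte, pan-germline and yolk ones are given through list totals. Lists are described by counts and medians; mog-6 found no ID in the name table. fbxa-114, sdc-2, rpn-10, ceh-30, elt-1 and spe-4 were named after their values were seen. No genome sequence was used here.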

Additional observations from a re-analysis of the deposited data

Results flagged for a closer look

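The day 5 value of tra-3 in batch 1, 1177, stood apart from the other day 5 libraries, which lay between 737 and 801. Its gap to the nearest of them took up 0.855 of the range of the 4 libraries, above Dixon's 95% critical value for 4 samples. It was the only such value among the 20 groups of 4 examined for the 10 genes, where chance gives about 1 in 20. Without this library the log2 difference of tra-3 was 0.54 and was not called (limma adjusted p = 0.132).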

How the results depend on the processing

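Between 5 and 8 of the 10 genes were called higher under the 21 alternatives, against 7. fem-2, fem-3, fog-2, fog-3, her-1 and tra-2 kept their call and direction in all of them. Quantile normalization called 2 members lower (fem-1 and fog-3) against 1. Without both day 1 libraries of batches 1 and 2, 1 pathway gene was called lower against 2, and tra-1 was called higher. Leaving out each library in turn gave 6 to 7 members higher, 1 lower, 29 to 34 pathway genes higher and 2 lower. Signs turned for genes that were not called: fem-1 was at -0.01 with edgeR and TMM scaling, -0.06 with a fixed sum, -0.22 with scaling outside the top 1%, -0.57 with quantile normalization, -0.14 without both day 1 libraries of batches 1 and 2, and -0.04 to 0.15 without single libraries. tra-1 was at -0.36 without both day 1 libraries of batches 3 and 4, fbf-1 at -0.15 with quantile normalization, and ssq-2 at -0.22 (edgeR, TMM), -0.19 (edgeR, RLE, and DESeq2) and -1.36 without both day 1 libraries of batches 3 and 4; without both of batches 1 and 2 it was called higher, at 2.95. A planned motif search was not run. The cause was not tested. Scaling outside the top 1% moved the median of all genes from -0.06 to -0.30 and the share of calls that were higher from 51.8% to 44.2%; relative to the median of all genes, fem-3 stayed between 3.65 and 3.85 and fog-3 between -2.61 and -2.25 over 7 scalings or tools. With the replicate block, 7 members were called higher and 1 lower, and no call of a named gene changed. her-1, with 1 to 10 reads per day 1 library, is limited by depth.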
